A study of Homo sapiens with 6 samples.

Results

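The genes described here are 10 long non-coding RNA (lncRNA) genes, NEAT1 and MALAT1, which make nuclear architectural RNAs, and GAS5, SNHG1, SNHG5, SNHG6, SNHG8, SNHG12, SNHG15 and ZFAS1, which are host genes of small nucleolar RNAs (snoRNAs). They were chosen by name, as well-known lncRNAs of human cells and not by a threshold on these values. The choice was made with earlier results of these data known, so the counts below are not those of an independent choice. Of 58735 genes in all, 16061, including all 10, passed the filter on low values and were tested. The libraries came from RKO, an established human colorectal cancer cell line. Cells that stably overexpressed the lncRNA LOC101927668 (LOC_OE) were compared with cells that carried the empty vector (Vector), with 3 libraries in each group. Both groups were made by lentiviral infection and puromycin selection, so both carry an integrated vector, and the LOC_OE cells express the full transcript from a lentiviral plasmid. The labels call the 3 libraries of a group biological replicates and do not say whether they were separate infections, so the p-values measure the spread between these libraries only.

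NEAT1 is the RNA scaffold of paraspeckles, nuclear bodies that hold RNA-binding proteins and edited or incompletely processed RNA. MALAT1 is kept in nuclear speckles, where splicing factors are stored, and neither MALAT1 nor the long isoform of NEAT1 ends in an ordinary poly(A) tail. The host genes carry box C/D or box H/ACA snoRNAs in their introns, which guide the methylation or pseudouridylation of ribosomal RNA, while the spliced host RNA reaches the cytoplasm and is often degraded there by nonsense-mediated decay (NMD). Several host genes begin with a 5′ terminal oligopyrimidine (TOP) tract, the same start that ribosomal protein mRNAs use.

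The values were FPKM, sequenced fragments scaled to the exon length of a gene and to the size of the library, and the 6 libraries held 15008842 to 18410231 reads on genes. The overexpressed gene itself, listed as AC005062.1, was measured at 0 to 0.0210 FPKM in the Vector libraries and at 5.63 to 7.33 FPKM in the LOC_OE libraries, a log2 fold change of 2.88 on the log2(FPKM + 1) scale used throughout. LOC_OE replicate 1 stood apart from its own group. Across the tested genes its log2 values correlated with those of LOC_OE replicates 2 and 3 at 0.967 and 0.962, whereas the other 2 LOC_OE libraries correlated with each other at 0.982 and the Vector libraries at 0.982 to 0.983. Of 12 genes listed as colon epithelial markers or as the mesenchymal counter-marker VIM, 5 were tested and 2, CDX1 and CDH1, were at 0 in every library, while CDX2, a transcription factor of intestinal epithelium, stood at 3.97 to 5.56 FPKM. The summed level of these 12 genes was 43.4 to 45.5 FPKM in Vector and 49.7 to 90.6 FPKM in LOC_OE. Within it VIM fell from 3.82 ± 0.318 to 1.35 ± 0.421 FPKM (limma adjusted p = 0.00877), and the highest sum came from KRT18, a keratin named after its values were seen, at 67.5 FPKM in LOC_OE replicate 1 and 18.1 to 25.3 FPKM in the others. Of 8 fibroblast markers 1 was tested and 3 were at 0, with sums of 2.70 to 3.53 FPKM in Vector and 1.12 to 1.26 FPKM in LOC_OE. Of 8 leukocyte markers 1 was tested and 2 were at 0, with sums of 1.04 to 1.48 FPKM and 0.223 to 0.713 FPKM.

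SNHG1 and SNHG15 rose in LOC_OE cells, by 1.72-fold and 1.96-fold in mean FPKM. SNHG6, the gene of this set with the highest Vector level, rose by a smaller step of 1.28-fold. NEAT1 stood 1.64-fold lower in mean FPKM in LOC_OE, with groups that did not overlap but with a difference that did not pass the adjusted test, and MALAT1, GAS5, SNHG5, SNHG8, SNHG12 and ZFAS1 did not pass it either. With limma, 3 of the 10 genes had a Benjamini-Hochberg adjusted p under 0.05, all higher, where 20.4% of all tested genes had one in either direction. At a fold change of at least 1.5 as well, 2 of the 10 were called higher and 0 lower, beside 4.63% of tested genes called higher and 5.58% called lower. At an unadjusted p under 0.05 in the same limma fit and the same fold change, 4 of the 10 were called, of which NEAT1 was the 1 called lower, beside 12.7% of all tested genes. Limma voom on reads recovered from the FPKM called 5 of the 10, beside 17.4% of the 15798 genes it tested. The FPKM of the groups did not overlap for 7 of the 10 genes, beside 45.3% of all tested genes. Of the 10 differences 6 were above 0 and 4 below, and their median was 0.30 on the log2 scale against 0.02 over all tested genes. In bulk RNA a change in the number of expressing cells and a change in RNA per cell cannot be told apart.

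**Figure D1:**
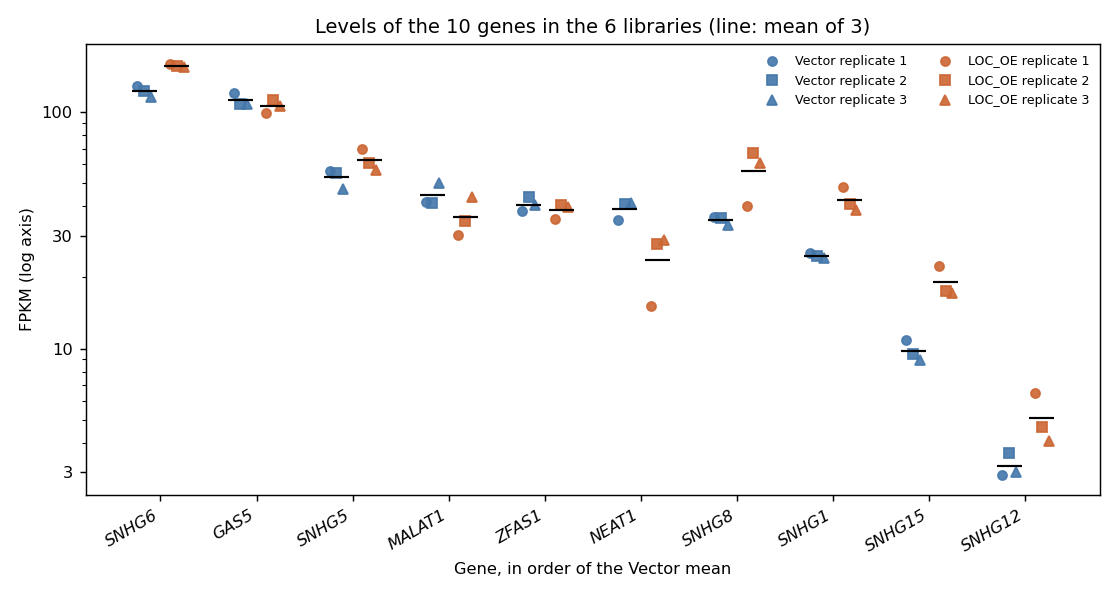
FPKM of the 10 genes on a log axis in the 3 Vector (blue) and 3 LOC_OE (orange) libraries, with a marker shape for each replicate number and a line at each group's mean. SNHG1 and SNHG15 lie wholly higher in LOC_OE, NEAT1 lies wholly lower with LOC_OE replicate 1 at 15.1 FPKM, and GAS5, MALAT1 and ZFAS1 overlap between the groups.

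The genes spanned a wide range of levels per length. In Vector cells SNHG6 averaged 122 ± 6.49 FPKM (SD, n = 3), above 98.7% of tested genes, and GAS5 averaged 112 ± 7.15 FPKM, above 98.5%. SNHG5 (53.0 FPKM), MALAT1 (44.5), ZFAS1 (40.6), NEAT1 (39.1) and SNHG8 (34.9) followed, and in this run each gene's range of FPKM overlapped that of the next, as the ranges of SNHG6 and GAS5 did. SNHG1 (24.7 FPKM), SNHG15 (9.74) and SNHG12 (3.19) came last and were each separated from their neighbours. The name abundant lncRNA did not describe SNHG15, above 69.6% of tested genes, or SNHG12, above 40.4%. In LOC_OE cells the order at both ends was the same, with SNHG6 first and SNHG15 and SNHG12 last, while SNHG8 and SNHG1 stood above ZFAS1, MALAT1 and NEAT1. The ranges of SNHG6 and GAS5 no longer overlapped there, and those of SNHG5, SNHG8, SNHG1, ZFAS1 and MALAT1 overlapped from each gene to the next. The FPKM of the 8 host genes summed to 380 to 419 in the Vector libraries and 478 to 501 in the LOC_OE libraries, whereas NEAT1 and MALAT1 together summed to 76.8 to 91.5 FPKM and 45.4 to 72.2 FPKM. The 8 hosts took 0.101% to 0.107% of the reads on genes in Vector and 0.101% to 0.112% in LOC_OE, shares that overlapped. All 10 genes took 0.230% to 0.252% of the reads on genes in Vector and 0.154% to 0.210% in LOC_OE.

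NEAT1 and MALAT1 are neighbours on chromosome 11, in the same direction and 52147 bases apart. Their primary transcripts end in a similar way, by cleavage before a tRNA-like structure that leaves an A-rich end encoded in the genome, and these ends are shown because they are what the RNAs have in place of a poly(A) tail. The last 60 bases of the long NEAT1 transcript (chr11:65445481-65445540, plus strand, GRCh38) and the 60 bases of MALAT1 before its annotated tRNA-like small RNA (chr11:65506057-65506116, plus strand) are given 5′ to 3′, with the 11 final bases that they share in capitals.
NEAT1: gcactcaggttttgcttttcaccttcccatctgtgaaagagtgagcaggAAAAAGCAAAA
MALAT1: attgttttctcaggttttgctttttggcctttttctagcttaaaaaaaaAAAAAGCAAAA

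NEAT1 (ENSG00000245532, chr11:65422774-65445540, plus strand, 1 exon block of 22767 bases in GENCODE 29) was measured at 35.1, 40.8 and 41.3 FPKM in Vector replicates 1 to 3 and at 15.1, 27.6 and 28.6 FPKM in LOC_OE replicates 1 to 3, on 5509 to 17478 reads. All 3 LOC_OE libraries lay below all 3 Vector libraries, and LOC_OE replicate 1 lay far below the other 2, at 0.538 times their mean. The means were 39.1 ± 3.46 and 23.8 ± 7.52 FPKM (SD, n = 3), a log2 fold change of -0.74 ± 0.24 (SE) with a limma adjusted p of 0.0747. Without LOC_OE replicate 1 the difference was smaller, -0.46, and passed the test with a limma adjusted p of 0.00924, and over the 6 fits that each left out 1 library it ranged from -0.90 to -0.46. With limma voom on the reads recovered from the FPKM it was -0.77 with an adjusted p of 0.0401. The length covers the long isoform, so reads of the short, polyadenylated isoform and of the long one were counted as 1 value.

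MALAT1 (ENSG00000251562, chr11:65497688-65506516, plus strand, 1 exon block of 8829 bases) was measured at 41.7, 41.5 and 50.2 FPKM in Vector replicates 1 to 3 and at 30.3, 34.6 and 43.6 FPKM in LOC_OE replicates 1 to 3, on 4287 to 8247 reads. LOC_OE replicates 1 and 2 lay below all Vector libraries, but LOC_OE replicate 3 lay above 2 of them, so the groups overlapped. The means of 44.5 ± 4.99 and 36.2 ± 6.76 FPKM differed by -0.30 ± 0.15 on the log2 scale, with a limma adjusted p of 0.207. None of the 6 fits without 1 library gave an adjusted p under 0.05, where the smallest was 0.0762. With array weights the difference was -0.30 with a limma adjusted p of 0.0348, and it was -0.56 at the same sum of FPKM (limma adjusted p = 0.0814) and -0.54 after quantile normalization (limma adjusted p = 0.108).

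Among small RNAs that lack a poly(A) tail, a single gene passed the test. Of 18 such RNAs, among them RN7SK, RMRP, the U12-type spliceosomal RNAs and several Cajal body RNAs, 8 were at 0 in every library, 4 were tested, 2 of them above 0 and 2 below in change, and 1 fell. That gene was RN7SL2, a 7SL RNA of the signal recognition particle, at 217, 754 and 415 FPKM in Vector replicates 1 to 3 and 115, 113 and 96.9 FPKM in LOC_OE replicates 1 to 3, a log2 fold change of -1.91 with a limma adjusted p of 0.0261 that was lost in 5 of 17 alternatives. The summed level of the 18 genes, nearly all of it RN7SL2, was 223 to 757 FPKM in Vector and 99.97 to 118 FPKM in LOC_OE. Whether poly(A)+ RNA was selected is not given in the sources used here, and the part of RNA selection in the values of NEAT1 and MALAT1 was not tested.

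The RNA of genes for paraspeckle proteins was measured in the same libraries, and protein was not. Of 37 paraspeckle protein genes 34 were tested, 9 rose and 4 fell, with a median log2 fold change of 0.19. Over all 16061 tested genes 1712 rose and 1565 fell, with a median of 0.02. RBM3, a cold-inducible RNA-binding protein, rose from 32.9 ± 0.936 to 74.0 ± 11.3 FPKM, a log2 fold change of 1.14 with a limma adjusted p of 0.00531. SFPQ, a core paraspeckle protein, rose from 40.7 ± 2.46 to 74.5 ± 8.94 FPKM, 0.85 on the log2 scale with a limma adjusted p of 0.00768. AKAP8L, a nuclear anchoring protein, fell from 12.2 ± 0.396 to 7.23 ± 1.15 FPKM, a log2 fold change of -0.69 with a limma adjusted p of 0.0131, and ZC3H6, a zinc finger protein, fell from 0.819 ± 0.0460 to 0.233 ± 0.111 FPKM with a limma adjusted p of 0.0270. When all libraries were scaled to the same sum of FPKM, 5 rose and 8 fell. The median was then -0.05, against -0.18 over all tested genes. Without LOC_OE replicate 1, 15 rose and 6 fell, and without Vector replicates 1, 2 and 3 in turn 3, 1 and 2 rose and 0 fell. Of all tested genes 35.5% passed in the first of these fits and 4.51%, 2.31% and 2.97% in the others.

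Of 16 nuclear speckle protein genes, the company of MALAT1, 4 rose and 1 fell, with a median log2 fold change of 0.26. Among all 16061 tested genes 1712 rose and 1565 fell, with a median of 0.02. The splicing factors SRSF1 and SRSF2 rose most, from 11.5 ± 1.48 to 35.5 ± 12.6 FPKM and from 22.1 ± 1.68 to 59.96 ± 23.7 FPKM, with limma adjusted p of 0.0117 and 0.0173. RBM25, a splicing regulator, rose by a log2 fold change of 0.31 (limma adjusted p = 0.0452), and CLK1, a kinase of SR proteins, fell by 0.41 (limma adjusted p = 0.0470). Of 12 genes of lncRNA 3′ end processing, 1 passed the test, POP1, a subunit of the RNase P that cleaves both RNAs, which rose from 8.79 ± 1.07 to 20.9 ± 6.86 FPKM with a limma adjusted p of 0.0183. In the fits that left out Vector replicate 2 or Vector replicate 3, 0 of these speckle and 3′ end genes passed in limma. Of all tested genes 2.31% and 2.97% passed in those fits. At an unadjusted p under 0.05 it was 6 speckle genes higher and 1 lower and 1 processing gene higher in each. The same cut gave 2164 and 2272 higher and 2050 and 2162 lower among all 16061 tested genes. Without LOC_OE replicate 1, 7 speckle genes rose and 1 fell, where 35.5% of all tested genes passed.

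Around the NEAT1 and MALAT1 locus, 15 genes with a start or end within 100000 bases of either RNA were tested, counting the pair themselves. Of these 4 had a limma adjusted p under 0.05, beside 20.4% of all tested genes, so the count was near that share. DPF2, a chromatin-binding zinc finger protein, differed by -0.38 (adjusted p = 0.0473, limma), EHBP1L1 by -0.30 (adjusted p = 0.0473, limma) and the lncRNA SSSCA1-AS1 by -0.74 (adjusted p = 0.0174, limma). KCNK7, a potassium channel subunit at 0.766 FPKM in Vector and 1.54 FPKM in LOC_OE, differed in the other direction by 0.51 (adjusted p = 0.0477, limma). DPF2, EHBP1L1 and KCNK7 lost the call in 8 or more of 17 alternatives. The tested genes whose values over the 6 libraries, centred on their own mean, lay closest to those of NEAT1 were CREBRF, PJA2 and PGPEP1, with root mean square differences of 0.049, 0.055 and 0.075 on the log2 scale where NEAT1 itself varied by 0.473. For MALAT1, which varied by 0.229, they were OR2A7, STX19 and PCDHB11, with differences of 0.051 to 0.054. For GAS5, which varied by 0.086, they were RTN4, ARAP1 and PPM1M, with differences of 0.014 to 0.024.

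The hosts differ in how often their annotated transcripts start with a TOP tract. A start with C followed directly by at least 4 bases that are each C or T, the form of a TOP tract, was found in 6 of 29 GENCODE 29 transcripts of GAS5, 1 of 25 of SNHG1, 3 of 23 of SNHG5, 3 of 5 of SNHG6, 1 of 5 of SNHG8, 4 of 17 of SNHG12, 0 of 10 of SNHG15 and 3 of 10 of ZFAS1. Over all 206694 transcripts the share was 2.41%. The first 40 bases of 1 such transcript each, read from the GENCODE 29 transcripts on GRCh38, are shown for 5 of the hosts to make the tract visible, which is in capitals, although most annotated transcripts of each of these 5 start without it.
GAS5: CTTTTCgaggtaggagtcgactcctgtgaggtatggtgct
SNHG5: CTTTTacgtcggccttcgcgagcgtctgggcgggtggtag
SNHG8: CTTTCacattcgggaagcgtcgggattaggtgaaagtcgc
SNHG12: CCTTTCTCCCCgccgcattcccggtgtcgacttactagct
ZFAS1: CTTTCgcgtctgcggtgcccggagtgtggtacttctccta

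The promoters of the RefSeq annotation (GRCh38.p14) covered 7 of the 10 genes and did not include NEAT1, SNHG6 and SNHG15. The letters TATAA, on the strand of transcription and within 40 to 16 bases before the start, were present for 5 of these 7 genes, SNHG5, SNHG8, SNHG12, ZFAS1 and 1 of 2 starts of MALAT1, against 3.91% of 35116 promoters. Windows from 40 bases before the start to 20 bases from it are shown for the 4 hosts with TATAA, in capitals, and for SNHG1, which lacks it. They lie at chr6:85678714-85678773 (minus strand, SNHG5), chr4:118278722-118278781 (plus strand, SNHG8), chr1:28581854-28581913 (minus strand, SNHG12), chr20:49278602-49278661 (plus strand, ZFAS1) and chr11:62855866-62855925 (minus strand, SNHG1).
SNHG5: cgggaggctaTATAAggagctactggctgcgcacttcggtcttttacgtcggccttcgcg
SNHG8: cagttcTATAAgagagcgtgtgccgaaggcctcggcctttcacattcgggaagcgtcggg
SNHG12: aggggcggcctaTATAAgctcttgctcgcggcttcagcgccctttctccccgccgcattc
ZFAS1: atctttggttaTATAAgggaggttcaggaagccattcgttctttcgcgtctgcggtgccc
SNHG1: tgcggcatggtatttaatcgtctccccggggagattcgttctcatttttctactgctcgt

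Among the 8 hosts SNHG1 and SNHG15 had the largest fitted rise, and their snoRNAs are of different classes. GENCODE 29 places 7 snoRNA genes in SNHG1 and 1, SNORA9, in SNHG15. The box C/D snoRNAs of SNHG1 carry ATGA, a part of their C box, near the 5′ end and CTGA, their D box, near the 3′ end. These bases are in capitals below. Both motifs stood within the first and last 20 bases in 240 of 278 human SNORD genes (86.3%). SNORA9 is a box H/ACA snoRNA with ACA just before its last bases, as in 112 of 147 SNORA genes (76.2%). All 5 shown lie on the minus strand of GRCh38, at chr11:62855564-62855632 (SNORD25), chr11:62855292-62855366 (SNORD26), chr11:62855012-62855083 (SNORD27), chr11:62854621-62854695 (SNORD28) and chr7:44985378-44985510 (SNORA9).
SNORD25: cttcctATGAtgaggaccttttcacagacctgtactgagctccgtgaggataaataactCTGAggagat
SNORD26: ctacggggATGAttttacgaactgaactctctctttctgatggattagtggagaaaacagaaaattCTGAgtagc
SNORD27: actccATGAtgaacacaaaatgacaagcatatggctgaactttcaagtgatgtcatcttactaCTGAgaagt
SNORD28: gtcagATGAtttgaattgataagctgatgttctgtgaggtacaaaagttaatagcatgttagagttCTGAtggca
SNORA9: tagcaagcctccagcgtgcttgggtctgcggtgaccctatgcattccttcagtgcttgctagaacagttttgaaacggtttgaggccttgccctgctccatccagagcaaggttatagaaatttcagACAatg

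The snoRNAs themselves were not measured by these files. GENCODE 29 annotates 19 snoRNA genes inside 7 of the 8 hosts on the same strand, and 16 of them were at 0 reads in every library. Of all genes lying wholly inside the merged exons of 1 of the 10 members on its strand, 24 of 24 were at 0 in every library. SNORD12B, which lies in an intron of ZFAS1, held 10, 6 and 3 reads in Vector replicates 1 to 3 and 11, 5 and 4 in LOC_OE replicates 1 to 3. The host values given here are levels of host transcripts. How reads from retained snoRNA sequence were counted is not given in the sources used here.

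SNHG1 (ENSG00000255717, chr11:62851988-62855914, minus strand, 3 exon blocks with 3756 bases) was measured at 25.3, 24.7 and 24.1 FPKM in Vector replicates 1 to 3 and at 48.1, 40.8 and 38.4 FPKM in LOC_OE replicates 1 to 3, on 1683 to 2892 reads. Every LOC_OE library lay above every Vector library, the Vector libraries had a CV of 2.38%, and LOC_OE replicate 1 was the highest. The means of 24.7 ± 0.587 and 42.4 ± 5.06 FPKM differed by 0.75 ± 0.10 on the log2 scale, with a limma adjusted p of 0.00846. Rescaling by the median of ratios, 1 of the 11 alternatives that kept all libraries, nearly repeated the reported fit. The adjusted p was under 0.05 in 11 of these 11 and in 4 of 6 fits without 1 library. It rose to 0.0564 without Vector replicate 2 and 0.0519 without Vector replicate 3, at log2 fold changes of 0.75 and 0.73. SLC3A2, the heavy chain of an amino acid transporter, starts 188 bases from SNHG1 in the opposite direction and stood at 66.6 ± 4.20 FPKM in Vector and 63.9 ± 6.77 FPKM in LOC_OE, a difference of -0.06 with a limma adjusted p of 0.710.

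SNHG15 (ENSG00000232956, chr7:44983023-44986961, minus strand, 2 exon blocks with 3647 bases) was measured at 10.8, 9.45 and 8.93 FPKM in Vector replicates 1 to 3 and at 22.4, 17.5 and 17.3 FPKM in LOC_OE replicates 1 to 3, on 606 to 1309 reads. The groups did not overlap, and LOC_OE replicate 1 was again the highest, at 1.29 times the mean of the other 2. The means of 9.74 ± 0.988 and 19.1 ± 2.90 FPKM differed by 0.90 ± 0.13 on the log2 scale, with a limma adjusted p of 0.00926. The adjusted p was under 0.05 in 11 of 11 alternatives that kept all libraries, median-of-ratios rescaling, which nearly repeated the reported fit, included. It was under 0.05 in 4 of 6 fits without 1 library, and 0.0583 without Vector replicate 2 and 0.0529 without Vector replicate 3. The log2 fold change ranged from 0.78 to 0.97 over those 6 fits.

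**Figure D2:**
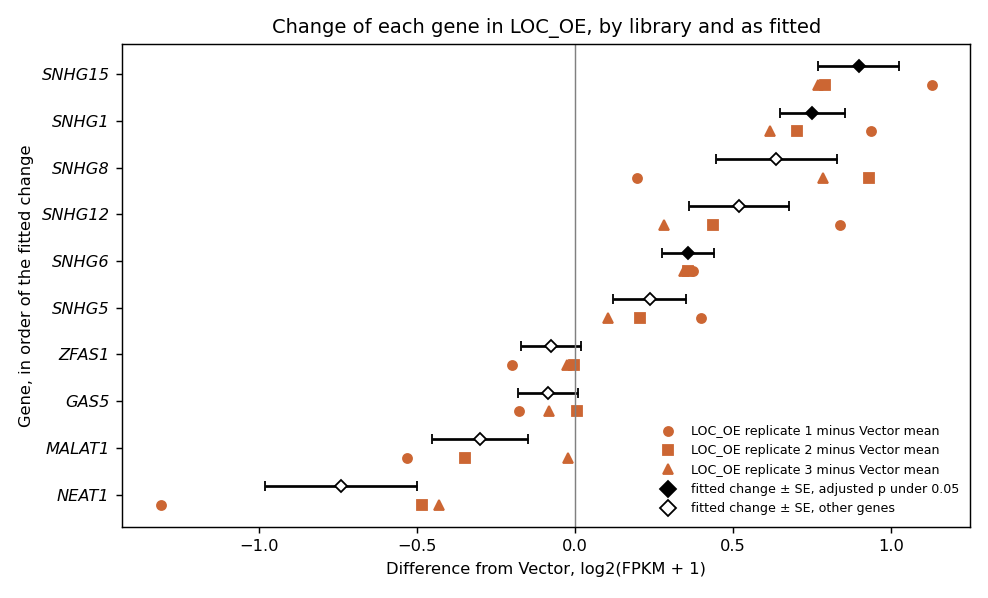
Difference of each LOC_OE library from the Vector mean (orange, a marker shape for each replicate number) and the fitted log2 fold change with its SE (diamonds, filled where the limma adjusted p was under 0.05), on the log2(FPKM + 1) scale. SNHG15, SNHG1 and SNHG6 carry filled diamonds, and LOC_OE replicate 1 is the farthest of the 3 libraries from the other 2 for NEAT1 at -1.31 and for SNHG8 at 0.20.

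SNHG6 (ENSG00000245910, chr8:66921684-66926398, minus strand, 4 exon blocks with 1247 bases) was measured at 129, 123 and 116 FPKM in Vector replicates 1 to 3 and at 159, 157 and 155 FPKM in LOC_OE replicates 1 to 3. The groups did not overlap, and the LOC_OE libraries lay closest together of all 10 genes in that group, with a CV of 1.05%. The means of 122 ± 6.49 and 157 ± 1.65 FPKM differed by 0.36 ± 0.08 on the log2 scale with a limma adjusted p of 0.0298. The difference depended on the scaling: it was 0.10 (limma adjusted p = 0.416) at the same sum of FPKM and 0.03 (limma adjusted p = 0.877) after quantile normalization. It passed in 1 of 6 fits without 1 library, the one without LOC_OE replicate 1, and reached a limma adjusted p of 0.131 without Vector replicate 3. MCMDC2, a meiotic gene on the other strand, overlaps 29.3% of the SNHG6 exon bases and held 2 to 15 reads per library.

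SNHG8 (ENSG00000269893, chr4:118278709-118279823, plus strand, 2 exon blocks with 923 bases), the host of SNORA24, was measured at 36.0, 35.5 and 33.2 FPKM in Vector replicates 1 to 3 and at 40.1, 67.4 and 60.8 FPKM in LOC_OE replicates 1 to 3, on 570 to 997 reads. All LOC_OE libraries lay above the Vector libraries, but LOC_OE replicate 1 lay close to them and far below the other 2, the opposite of its place for SNHG1 and SNHG15. The means of 34.9 ± 1.49 and 56.1 ± 14.2 FPKM differed by 0.64 ± 0.19 on the log2 scale, with a limma adjusted p of 0.0602. Without LOC_OE replicate 1 the difference was 0.86 with a limma adjusted p of 0.00107.

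SNHG12 (ENSG00000197989, chr1:28578538-28583132, minus strand, 2 exon blocks with 4266 bases) holds 5 annotated snoRNA genes and was the lowest of the 10, at 2.94, 3.64 and 3.01 FPKM in Vector replicates 1 to 3 and 6.47, 4.66 and 4.08 FPKM in LOC_OE replicates 1 to 3, on 235 to 442 reads. The groups did not overlap, and LOC_OE replicate 1 was the highest, at 1.48 times the mean of the other 2. The means of 3.19 ± 0.384 and 5.07 ± 1.25 FPKM differed by 0.52 ± 0.16 on the log2 scale, with a limma adjusted p of 0.0644. The adjusted p was under 0.05 in 3 of 11 alternatives that kept all libraries, voom on recovered reads among them (0.0382), and without LOC_OE replicate 1 (0.0412, at a log2 fold change of 0.36). TRNAU1AP, which shares 8 exon bases with SNHG12 on the other strand, differed by 0.24 with a limma adjusted p of 0.0662.

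SNHG5 (ENSG00000203875, chr6:85660950-85678748, minus strand, 4 exon blocks with 2806 bases), the host of SNORD50B, was measured at 56.5, 55.3 and 47.3 FPKM in Vector replicates 1 to 3 and at 70.0, 61.1 and 56.9 FPKM in LOC_OE replicates 1 to 3. The groups did not overlap, but the lowest LOC_OE library lay just above the highest Vector library. The means of 53.0 ± 5.01 and 62.7 ± 6.68 FPKM differed by 0.24 ± 0.12 on the log2 scale with a limma adjusted p of 0.192, and the difference turned to -0.02 at the same sum of FPKM and to -0.04 after quantile normalization. No alternative gave SNHG5 a limma adjusted p under 0.05, and the smallest was 0.0520.

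GAS5 (ENSG00000234741, chr1:173863900-173868882, minus strand, 5 exon blocks with 3631 bases), a host of box C/D snoRNAs whose RNA accumulates when growth stops, was measured at 120.4, 109 and 108 FPKM in Vector replicates 1 to 3 and at 98.9, 113 and 106 FPKM in LOC_OE replicates 1 to 3, on 5638 to 8206 reads. LOC_OE replicate 2 lay within the Vector range and the other 2 below it, so the groups overlapped. The means of 112 ± 7.15 and 106 ± 6.85 FPKM differed by -0.09 ± 0.09 on the log2 scale with a limma adjusted p of 0.551. The difference was -0.34 at the same sum of FPKM (limma adjusted p = 0.0706) and -0.41 after quantile normalization (limma adjusted p = 0.0839), and it turned to 0.01 with array weights. ZBTB37, which starts 800 bases away in the opposite direction, stood at 1.496 ± 0.118 and 1.12 ± 0.390 FPKM, with a limma adjusted p of 0.301, and GAS5-AS1, which shares 42 exon bases on the other strand, held 7 to 19 reads per library.

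ZFAS1 (ENSG00000177410, chr20:49278178-49295738, plus strand, 7 exon blocks with 2243 bases), the host of the SNORD12 snoRNAs, was measured at 38.0, 43.6 and 40.3 FPKM in Vector replicates 1 to 3 and at 35.2, 40.5 and 39.8 FPKM in LOC_OE replicates 1 to 3, on 1265 to 1817 reads. LOC_OE replicates 2 and 3 lay within the Vector range and replicate 1 below it. The means of 40.6 ± 2.83 and 38.5 ± 2.87 FPKM differed by -0.08 ± 0.10 on the log2 scale with a limma adjusted p of 0.604, and by -0.33 at the same sum of FPKM (limma adjusted p = 0.119) and -0.32 after quantile normalization (limma adjusted p = 0.164). ZNFX1, a helicase-like zinc finger gene that starts 248 bases away in the opposite direction, fell from 13.6 ± 0.677 to 10.3 ± 0.540 FPKM, a log2 fold change of -0.37 with a limma adjusted p of 0.0254. ZNFX1 overlaps 11.1% of the ZFAS1 exon bases on the other strand, and whether strand was used in counting is not given in the sources used here.

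**Figure D3:**
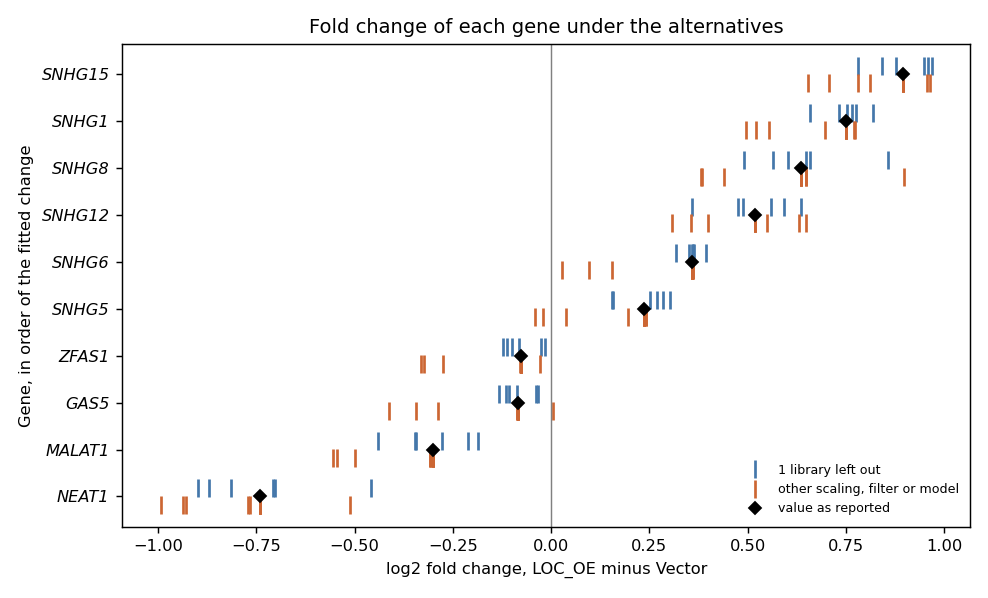
Log2 fold change of each gene as reported (black diamonds), in the 6 fits that left out 1 library (blue) and under the other scalings, filters and models (orange). All values of SNHG1, SNHG15, SNHG8, SNHG12 and SNHG6 lie above 0 and all of NEAT1, MALAT1 and ZFAS1 below it, while SNHG5 reaches -0.04 and GAS5 reaches 0.01.

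The other non-coding snoRNA hosts gave a like picture in counts. Of 23 such genes 15 were tested, 6 rose and 0 fell, and the median log2 fold change was 0.24. Among all 16061 tested genes 1712 rose and 1565 fell, with a median of 0.02. DANCR, the host of SNORA26, was highest in change, at 17.1, 13.8 and 12.7 FPKM in Vector replicates 1 to 3 and 61.8, 36.2 and 32.3 FPKM in LOC_OE replicates 1 to 3, a log2 fold change of 1.47 ± 0.25 with a limma adjusted p of 0.0138. SNHG26 rose from 1.10 ± 0.348 to 2.41 ± 0.114 FPKM (0.71, limma adjusted p = 0.0187), SNHG16 from 11.5 ± 1.15 to 16.5 ± 2.37 FPKM (0.48, limma adjusted p = 0.0404) and SNHG3 from 27.2 ± 1.41 to 37.2 ± 2.37 FPKM (0.43, limma adjusted p = 0.0203). At the same sum of FPKM 4 rose and the median was 0.02, against -0.18 over all tested genes. In limma the count was 0 without Vector replicate 3 and 1 without either of the other 2 Vector libraries. At an unadjusted p under 0.05 without Vector replicate 3, 6 were higher, beside 2272 of all 16061 tested genes. Of all tested genes 2.31% to 4.51% had a limma adjusted p under 0.05 in the fits without 1 Vector library.

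Of 49 protein-coding genes known to host snoRNAs, 15 rose and 1 fell, with a median log2 fold change of 0.26. The 16061 tested genes had 1712 that rose and 1565 that fell, with a median of 0.02. NCL, which encodes nucleolin, a main protein of the nucleolus, rose from 101 ± 3.45 to 198 ± 43.1 FPKM (0.95, limma adjusted p = 0.0129), and EIF4G2, a translation initiation factor, from 46.0 ± 2.71 to 95.2 ± 26.3 FPKM (1.00, limma adjusted p = 0.0172). EIF4A2, an RNA helicase of translation initiation, fell from 44.0 ± 2.47 to 33.4 ± 1.96 FPKM (limma adjusted p = 0.0268). TPT1, itself a TOP mRNA, rose by 0.31 with a limma adjusted p of 0.0469, but stood at -0.01 after quantile normalization. At the same sum of FPKM 8 rose and 4 fell, with a median of 0.00 against -0.18 over all tested genes. After quantile normalization 7 rose and 6 fell. Without LOC_OE replicate 1, 27 rose and 2 fell, and without Vector replicate 2, 2 rose and 0 fell. Of all tested genes 35.5% and 2.31% passed in these fits.

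Genes for proteins that bind and assemble snoRNAs were measured as RNA in a list of 20, all of which were tested. Of these 9 rose and 1 fell, with a median log2 fold change of 0.48. Beside them, 1712 of all 16061 tested genes rose and 1565 fell, with a median of 0.02. SNU13, which binds the box C/D motif, rose from 30.1 ± 1.83 to 53.6 ± 11.3 FPKM (0.79, limma adjusted p = 0.0183), NOP58, a core box C/D protein, from 29.4 ± 0.854 to 49.4 ± 8.79 FPKM (0.72, limma adjusted p = 0.0162) and ZNHIT6, an assembly factor, from 7.99 ± 0.479 to 11.2 ± 0.480 FPKM (0.44, limma adjusted p = 0.0166). NOP53, a ribosome assembly factor, fell from 89.6 ± 4.88 to 64.2 ± 7.89 FPKM (limma adjusted p = 0.0305). At the same sum of FPKM 5 rose and 1 fell, with a median of 0.24 against -0.18 over all tested genes. In each fit without 1 Vector library 0 passed in limma, beside 2.31% to 4.51% of all tested genes. At an unadjusted p under 0.05 in those fits, 10 were higher and 1 lower. Among all 16061 tested genes 2164 to 2431 were higher and 2050 to 2182 lower at that cut. Without LOC_OE replicate 1, 13 rose and 1 fell, where 35.5% of all tested genes passed.

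Genes of NMD and of the mTORC1 and LARP1 pathway formed further lists. Beside them, 20.4% of all tested genes had a limma adjusted p under 0.05 in either direction. Of 21 NMD genes 1 rose and 0 fell, with a median log2 fold change of 0.23. At the same sum of FPKM 0 NMD genes rose and 3 fell, with a median of -0.02 against -0.18 over all tested genes. Of 15 genes of the mTORC1 and LARP1 pathway, which controls TOP RNAs, 3 rose and 0 fell. LARP4, an RNA-binding protein related to LARP1, rose from 10.2 ± 0.358 to 17.5 ± 0.464 FPKM (0.73, limma adjusted p = 0.00459). EIF4EBP1, a translation repressor that mTORC1 phosphorylates, rose from 74.8 ± 3.52 to 105 ± 9.83 FPKM (0.49, limma adjusted p = 0.0217), and RPS6KB1, the S6 kinase, from 4.33 ± 0.492 to 6.42 ± 0.331 FPKM (0.48, limma adjusted p = 0.0208). At the same sum of FPKM 1 gene of this list rose and 2 fell. Without LOC_OE replicate 1, 8 NMD genes rose and 2 fell, and 9 genes of the mTORC1 and LARP1 list rose. In that fit 35.5% of all tested genes passed. In each fit without 1 Vector library, 1 gene of the mTORC1 and LARP1 list and 0 NMD genes passed in limma. Of all tested genes 2.31% to 4.51% passed in those fits. At an unadjusted p under 0.05 in the same fits, 3 to 4 NMD genes were higher, beside 2164 to 2431 of all 16061 tested genes.

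**Figure D4:**
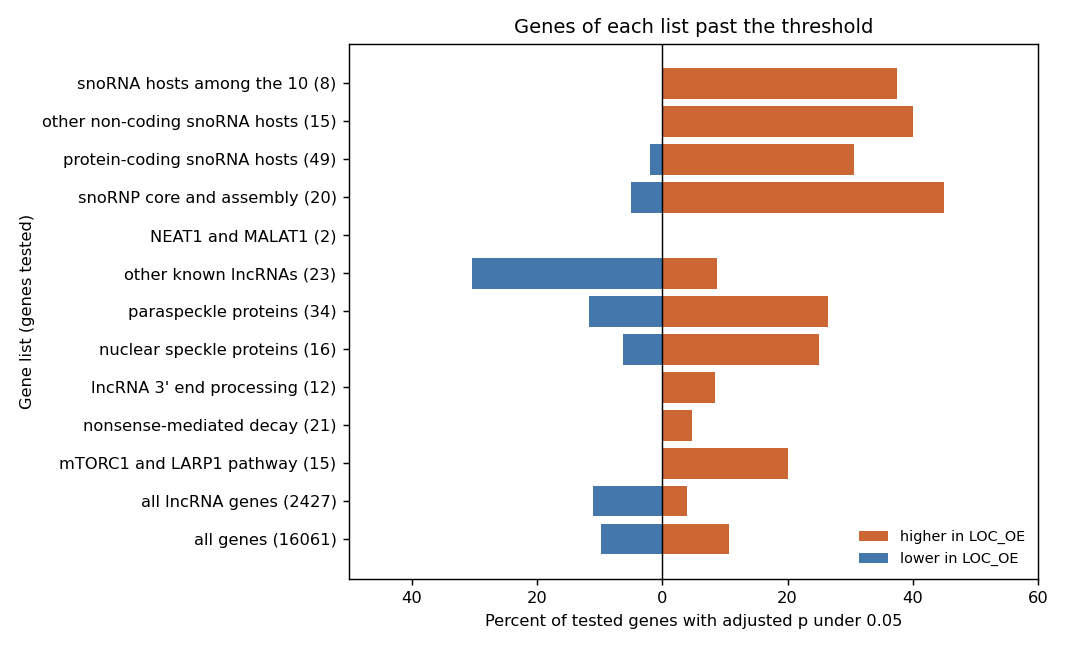
Percent of the tested genes of each list with a limma adjusted p under 0.05, higher in LOC_OE to the right (orange) and lower to the left (blue), with the number of genes tested in brackets. Of the 15 other non-coding snoRNA hosts 6 rose and 0 fell, of the 2427 lncRNA genes 95 rose and 268 fell, and NEAT1 and MALAT1 show no bar.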

How the data were processed

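RNA from 6 RKO libraries was sequenced by the authors (paired reads of 150 bases). The submitters' processing notes name HISAT2 2.0.4 and StringTie 1.3.0 with the hg38 build. The deposited values were FPKM in 1 table for all libraries, made by the authors, and all 58735 gene IDs matched GENCODE 29. Multiplied by merged exon length, 100% of values above 0 came out as whole multiples of 1 read within 0.1 reads, so reads were recovered. The library sizes that the authors divided by matched size factors by the median of ratios, multiplied by the geometric mean of the totals. Genes that reached 0.5 FPKM in 3 or more libraries were kept, and log2(FPKM + 1) was tested with limma 3.58.1 (R 4.3.3, trend in eBayes) with Benjamini-Hochberg adjustment, where rose and fell mean an adjusted p under 0.05. A call needed both this and a change of 1.5-fold or more. On this scale the fold change of low genes is understated. The fit was tested on simulated data. Alternatives were another pseudocount (0.1), filters, scalings, quantile normalization, array weights, a replicate block, each library left out, and 2 chosen after seeing the data (equal reads on genes, voom on recovered reads). A rescaling by the median of ratios was among the scalings and nearly repeated the reported fit, since the FPKM already held such size factors. The members and gene lists were chosen with earlier results of these data known. All 10 members were named, with at most the 2 highest and 2 lowest changes of each other list among genes with an adjusted p under 0.05, and for NEAT1, MALAT1 and GAS5 the 3 genes of smallest root mean square difference. Neighbouring and overlapping genes were named by position. Some genes that these rules pick are not reported here.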

Additional observations from a re-analysis of the deposited data

How the results depend on the processing

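At the same sum of FPKM 261 genes were called higher and 1786 lower, and at the same number of reads on genes 311 and 1527, against 743 and 896 as reported, since these scalings shift the median log2 fold change of all genes from 0.02 to -0.18 and -0.13. Of the 10 genes, 1 was called under either scaling and 1 after quantile normalization, against 2 as reported, 4 at an unadjusted p under 0.05 and 5 with limma voom on recovered reads, where 1682 genes were called lower. The number of the 10 with an adjusted p under 0.05, 3 as reported, was 7 with array weights, 6 with voom and 6 unadjusted, where 50.3%, 26.6% and 36.5% of all genes tested had one, against 20.4% as reported. Over the fits without 1 library, 144 to 747 genes were called higher and 227 to 938 lower, 0 to 3 of the 10 were called and 0 to 6 had an adjusted p under 0.05. The lowest of these came without Vector replicate 2 (0 and 0 of the 10) or Vector replicate 3 (0 and 0). Of all tested genes 2.31% and 2.97% had a limma adjusted p under 0.05 in those fits. At an unadjusted p under 0.05 in limma, 5 and 4 of the 8 hosts were higher there. All 16061 tested genes gave 2164 and 2272 higher at that cut. The 6 came without LOC_OE replicate 1, where 35.5% of all genes had a limma adjusted p under 0.05. SNHG5 turned to -0.021 at the same sum of FPKM and -0.040 after quantile normalization, TPT1 to -0.0093 after quantile normalization, GAS5 to 0.0059 and SLC3A2 to 0.062 with array weights, and SLC3A2 to 0.021 without LOC_OE replicate 1. The cause was not tested. Of 36 genes outside the 10 chosen by the naming rule with an adjusted p under 0.05, 4 passed in all 17 alternatives (AC005062.1, LARP4, PURPL and RBM3) and 13 were lost in 7 or more, among them SNHG3, SNHG16, RBM25 and NUTM2A-AS1. Same-numbered libraries deviated together at correlations of 0.11, -0.03 and 0.12, and differently numbered ones at -0.13 to 0.06. These values do not decide whether the numbers pair the libraries. With the replicate block, 696 genes were called higher and 739 lower, 2 of the 10 were called and 2 had an adjusted p under 0.05, SNHG6 being the one lost (0.0564).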

Other observations

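Over all lncRNA genes, the 10 and the other snoRNA hosts included, more fell than rose in LOC_OE. Of 2427 tested lncRNA genes 95 rose and 268 fell in limma, with a median log2 fold change of -0.12 that was 0.00 after quantile normalization, where 158 rose and 186 fell. Without Vector replicate 2, 12 rose and 34 fell. Among the 399 other lncRNA genes that averaged 3 FPKM or more over the libraries, 40 rose and 77 fell. Of 37 lncRNAs known by name 36 were in the table and 23 were tested, and 2 rose and 7 fell. PURPL fell from 7.53 ± 1.79 to 0.714 ± 0.270 FPKM, a log2 fold change of -2.30 with a limma adjusted p of 0.00328. MIR17HG, the host of the miR-17 cluster, rose from 1.204 ± 0.191 to 2.85 ± 0.633 FPKM (0.80, limma adjusted p = 0.0167), and NUTM2A-AS1 from 2.68 ± 0.119 to 3.59 ± 0.152 FPKM (0.32, limma adjusted p = 0.0374). Without Vector replicate 2, 0 of the 23 rose and 1 fell, and without LOC_OE replicate 1, 7 rose and 8 fell. Of all tested genes 2.31% and 35.5% had a limma adjusted p under 0.05 in these fits.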
